A study of Mus musculus with 6 samples.

Results

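Psrc1, Celsr2, Sort1, Mybphl and Sars are 5 neighbouring genes on mouse chromosome 3, and they were followed here in the liver of mice given either of 2 gene delivery vectors. They were taken by name from a table of 35977 genes, and all 5 had a row. They were chosen by earlier results of the same libraries, in which Psrc1 had the fourth smallest p of all genes tested, and its neighbours were added for their position. The fold changes of the members between the vectors are therefore a description, and no p-value of a member counts as support.

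The vectors are adeno-associated viruses of serotype 9 in which the promoter of Tnnt2, the cardiac troponin T gene, drives Cre recombinase, a promoter known from heart muscle. In 3 liver libraries the vector was AAV9-Tnnt2-Cre-miR122, whose added sequence is a target of the hepatocyte microRNA miR-122 (Cre-miR122, replicates 1, 2 and 4). In the other 3 it was AAV9-Tnnt2-Cre without that sequence (Cre, replicates 10, 11 and 12). The liver behind every library thus carried the same promoter and the same Cre gene. The study asked how the vector with miR-122 sites affects liver tissue. The labels give no strain, age, sex, dose or time, and do not say whether each library came from its own animal.

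Total counts lay between 20340994 and 20817837 per library. The Cre transcript had 12, 16 and 10 counts in Cre-miR122 libraries and 61, 50 and 37 in Cre libraries. Cre replicate 10 stood apart in its sex-linked genes, with 5 counts of Xist and 1676 of Ddx3y, where the other 5 libraries had at least 15778 of Xist and at most 1 of Ddx3y. The hepatocyte markers Alb, Ttr, Apoa1, Serpina1c and Fgb together made up 135400 to 138400 CPM (counts scaled to the library size) in Cre-miR122 libraries and 119700 to 142500 in Cre libraries. All 7 markers of cardiac and skeletal muscle averaged under 1 CPM, and Actc1, the cardiac actin gene, had no count in any library.

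The corresponding human locus is known from genetic studies of LDL cholesterol and coronary disease, in which common variants go with the liver expression of SORT1, CELSR2 and PSRC1. Sort1 encodes sortilin, a sorting receptor that carries proteins between the Golgi, the cell surface and lysosomes and that in hepatocytes binds apolipoprotein B. Psrc1, also called Dda3, encodes a microtubule-associated protein of the mitotic spindle and was described in mouse cells as a p53-inducible gene. Celsr2 encodes a large cadherin of the flamingo family with a role in planar cell polarity, Mybphl a myosin-binding protein of heart muscle, and Sars the cytosolic seryl-tRNA synthetase.

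In the build GRCm38, by the coordinates of the count table, the genes lie within 161207 bases in the order Sort1, Mybphl, Psrc1, Celsr2, Sars. Sort1 (chr3:108284053-108361519), Mybphl (chr3:108364911-108380057) and Psrc1 (chr3:108383804-108388231) lie on the plus strand. Celsr2 (chr3:108390848-108415920) and Sars (chr3:108424864-108445259) lie on the minus strand, so Psrc1 and Celsr2 point towards each other, with 2616 bases between their ends. No exon base of Psrc1, Celsr2, Sort1 or Sars was shared with another gene of the table. Mybphl shared 89 exon bases with Gm12522, a non-coding gene on the minus strand whose start lies 62 bases from that of Psrc1, and without a known strand setting reads there cannot be assigned.

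The start region of Psrc1 is shown because it is the part of the locus whose transcript differed most between the vectors. It covers 250 bases before and 50 bases from the first of its listed start sites (chr3:108383554-108383853, plus strand, RefSeq, GRCm38.p6), and capitals mark CCAAT boxes (CCAAT, or ATTGG on the other strand) and the CHR element of cell cycle promoters (TTTGAA or TTCGAA, or TTCAAA on the other strand).

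Psrc1: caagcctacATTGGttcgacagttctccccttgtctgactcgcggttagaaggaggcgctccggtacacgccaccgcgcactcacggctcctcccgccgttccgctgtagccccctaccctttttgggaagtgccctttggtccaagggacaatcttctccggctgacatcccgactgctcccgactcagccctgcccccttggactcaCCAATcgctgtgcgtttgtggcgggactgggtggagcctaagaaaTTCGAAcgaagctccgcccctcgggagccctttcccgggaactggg

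This window held 2 CCAAT boxes, beginning 241 and 41 bases before the start site, and 1 CHR element beginning 4 bases after it. Among 32851 windows of 300 bases, 37.4% held a CCAAT box and 19.2% a CHR element. The window of the second listed start of Psrc1 held 1 CCAAT box and the same CHR element, and that of Gm12522, which overlaps both on the other strand, held 1 of each motif. Neither motif was found in the windows of Celsr2, Mybphl or Sars. The p53 half-site, present in 8.36% of windows, and a C/EBP-type sequence (TTGCNNAA, on both strands), present in 10.8%, matched none of the windows of Psrc1, Celsr2, Mybphl and Sars, and no window of Sort1 was searched. Both strands were searched, the motifs were allowed to overlap, and a match is a match of letters alone.

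Because miR-122 sites distinguish the vectors, the longest 3′ UTR of each member (GENCODE M21) was searched for the sequence that pairs with bases 2 to 8 of miR-122-5p, shown in capitals. Sort1 held 1 site (chr3:108357293-108357299, plus strand) and Sars held 1 (chr3:108426263-108426269, minus strand). Psrc1, Celsr2 and Mybphl held none, and 8.75% of 20657 genes held at least 1.
Sort1: cagtacctcctACACTCCctgaggctccg
Sars: tgtggtagctgACACTCCtccacaggagc

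Psrc1 was the member with the widest difference. It had 88, 113 and 116 counts in Cre-miR122 replicates 1, 2 and 4, against 52, 34 and 52 counts in Cre replicates 10, 11 and 12. After scaling for library size by TMM, the level was 5.16 ± 0.668 CPM in Cre-miR122 libraries and 2.25 ± 0.579 CPM in Cre libraries (SD, n = 3 each). All 3 Cre-miR122 libraries lay above all 3 Cre libraries, with the lowest Cre-miR122 library at 4.39 CPM and the highest Cre library at 2.60 CPM, and Cre replicate 11 was the lowest of all at 1.59 CPM. The log2 fold change, Cre-miR122 minus Cre, was 1.20 (SE 0.21), a 2.29-fold difference.

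The counts behind Psrc1 were few. The 95% Poisson interval of the lowest Cre-miR122 library ran from 70.6 to 108 counts and that of each of Cre replicates 10 and 12 from 38.8 to 68.2 counts, and these intervals cover counting error only. The coefficient of variation was 13.0% in Cre-miR122 libraries and 25.7% in Cre libraries, where counting alone gives 9.73% and 14.7%. In bulk tissue, more cells that hold the transcript and more transcript per cell cannot be told apart.

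Sort1 differed by less than the spread between libraries. It had 488, 687 and 714 counts in Cre-miR122 libraries and 533, 590 and 629 counts in Cre libraries, or 30.7 ± 5.55 CPM and 28.4 ± 2.66 CPM (SD, n = 3 each). Cre-miR122 replicate 1 was the lowest of all 6 libraries and replicates 2 and 4 of that group were the highest, so the groups overlapped. The log2 fold change was 0.11 (SE 0.14).

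Celsr2, which ends beside Psrc1, had 63, 66 and 69 counts in Cre-miR122 libraries and 53, 65 and 72 counts in Cre libraries. Its level was 3.22 ± 0.103 CPM with Cre-miR122 and 3.08 ± 0.490 CPM with Cre (SD, n = 3 each), and the Cre-miR122 values all lay within the range of the Cre values. The log2 fold change was 0.06 (SE 0.17). The difference between the group means was smaller than the SD of the Cre libraries.

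Sars was the most abundant member. It had 965, 1103 and 964 counts in Cre-miR122 libraries and 1158, 1070 and 975 counts in Cre libraries, or 49.4 ± 3.51 CPM and 52.0 ± 4.68 CPM (SD, n = 3 each). The groups overlapped, with Cre replicate 10 highest, and the log2 fold change was -0.07 (SE 0.09). Mybphl had 5, 1 and 4 counts in Cre-miR122 libraries and 1, 2 and 2 in Cre libraries, which was too few for it to pass the filter on low counts, so it has no tested fold change, and without that filter edgeR gave a log2 fold change of 0.96. Gm12522, whose start lies beside that of Psrc1, had 3, 4 and 2 counts in Cre-miR122 libraries and 1, 1 and 6 in Cre libraries, with overlap between the groups.

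**Figure D1:**
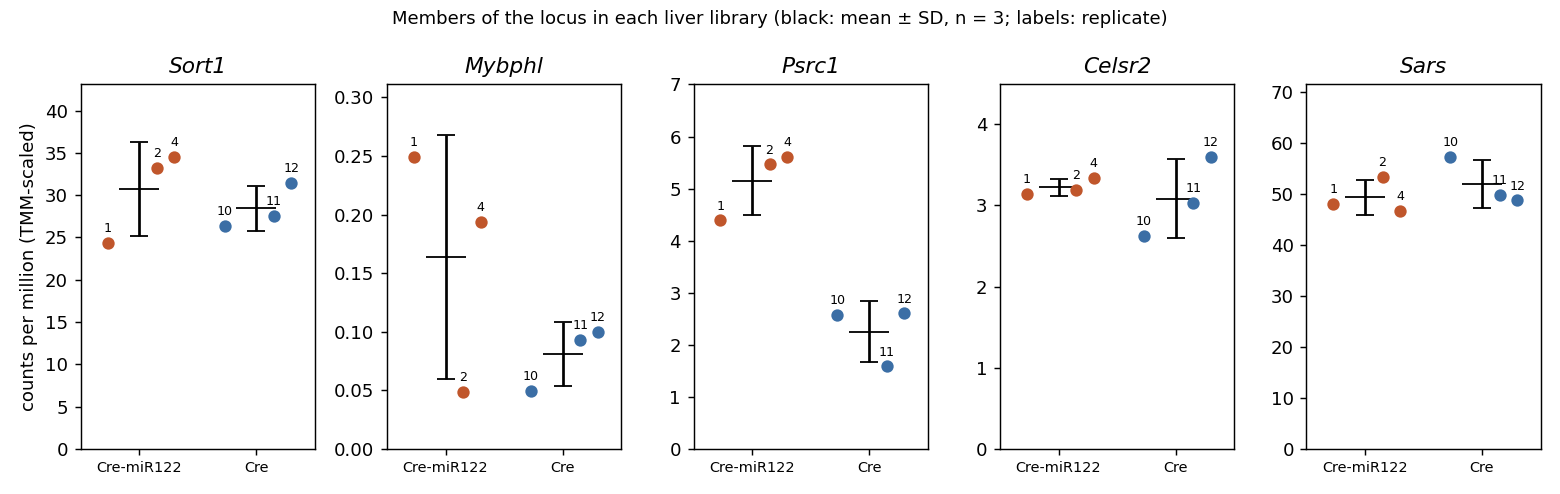
TMM-scaled CPM (y axis, from 0, its own range for each gene) of the 5 members in Cre-miR122 (orange) and Cre (blue) libraries, each point being 1 library labelled with its replicate number, with black marks for the mean ± SD (n = 3). Psrc1 lies between 4.39 and 5.61 CPM with Cre-miR122 and between 1.59 and 2.60 CPM with Cre, and the groups of the other 4 genes overlap.

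Of the 5 members 4 passed the filter and were tested among 14374 genes by edgeR's quasi-likelihood test, in which 0 genes, or 0%, reached an adjusted p under 0.05, members included. The smallest adjusted p of any gene was 0.816, and 778 genes had an unadjusted p under 0.05. DESeq2 called 1 gene higher, Psrc1, and 2 lower, while with limma-voom no gene was called. The DESeq2 call of Psrc1 uses the values by which it was picked and is no support. Separation of the groups, with Cre-miR122 higher, was seen for 1 of the 4 tested members, Psrc1, and for 5.69% of all genes tested. No other reading is made of that count, since Psrc1 was picked in this contrast.

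With any 1 library left out Psrc1 stayed higher with Cre-miR122, a direction that the separation of its groups fixes in advance. Its log2 fold change was 0.99 without Cre replicate 11 and up to 1.31 without Cre replicate 10 or 12. Without Cre replicate 10, whose sex-linked genes differ, Sort1 stood at 0.06, Celsr2 at -0.04 and Sars at 0.0015. The widest value among these neighbours was 0.25, for Sort1 without Cre-miR122 replicate 1.

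**Figure D2:**
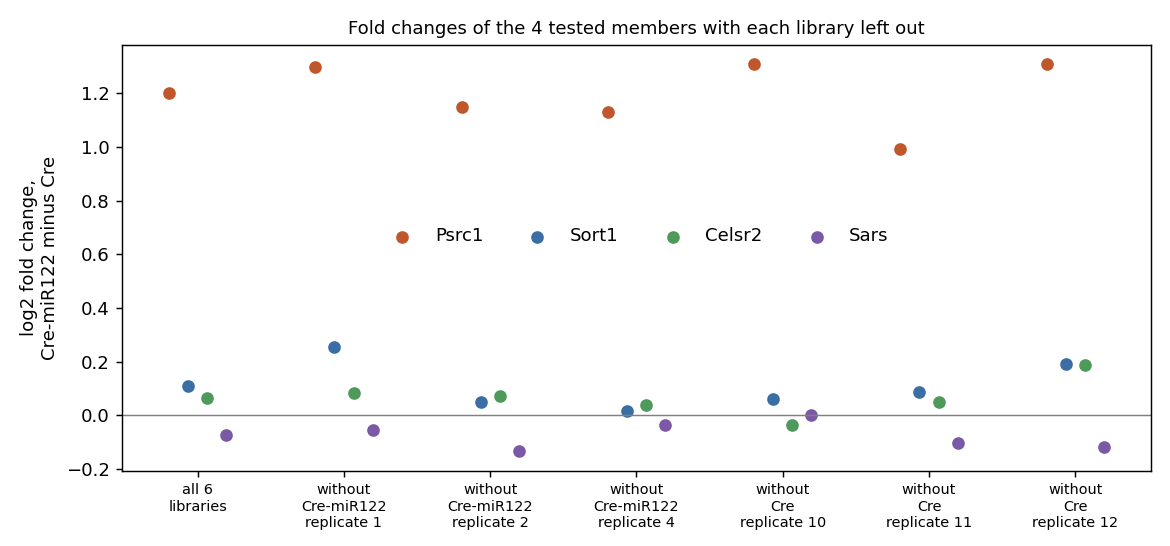
Log2 fold change, Cre-miR122 minus Cre (y axis), of the 4 tested members with all 6 libraries and with each library left out in turn (x axis). Psrc1 lies between 0.99 and 1.31 with 1 library left out, and Sort1, Celsr2 and Sars lie between -0.13 and 0.25.

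Per length of transcript the members kept 1 order in both groups. Sars was at 13.3 ± 0.948 RPKM (CPM per kilobase of exon) with Cre-miR122 and 14.0 ± 1.26 RPKM with Cre. Sort1 followed at 4.42 ± 0.800 and 4.10 ± 0.383 RPKM, then Psrc1 at 2.91 ± 0.377 and 1.27 ± 0.327 RPKM, Celsr2 at 0.304 ± 0.00965 and 0.290 ± 0.0461 RPKM, and Mybphl at 0.128 ± 0.0813 and 0.0634 ± 0.0215 RPKM (Cre-miR122 first, SD, n = 3 each). Every library of a gene in this order lay above every library of the next. The lowest Sort1 library, Cre-miR122 replicate 1, stood at 3.51 RPKM and the highest Psrc1 library, Cre-miR122 replicate 4, at 3.17 RPKM.

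Across the 6 libraries the log2 CPM of Psrc1 had a Pearson r of 0.295 with Celsr2, 0.437 with Sort1 and -0.223 with Sars. With the group means removed these were 0.13, 0.517 and 0.313. The points share their libraries and 2 groups, and the values are given as a description. Of 13035 genes with a mean of at least 1 CPM, those most like Psrc1 over the 6 libraries were Cpne3 (r = 0.997), Rbpj (0.994), Tango6 (0.988), Impad1 (0.988) and Ccng1 (0.986), and those most opposite were Serpina3g (-0.992), Hes6 (-0.989), Trex1 (-0.989), Jmjd6 (-0.987) and Snhg20 (-0.985). None of the first 5 was among the 5 highest after removal of the group means, though their r was then 0.99, 0.971, 0.923, 0.962 and 0.918. Those 5 highest were D630045J12Rik, C330021F23Rik, Kif16b, Adck4 and Xpo7 (each r of at least 0.997). Without that removal their r over the 6 libraries was 0.0748, 0.826, 0.75, 0.75 and 0.873, in the same order.

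The window that reaches 500 kb beyond the members held 38 other genes, of which 24 were tested and 22 averaged at least 1 CPM. Of the 24, 13 were positive in log2 fold change and 11 negative, and their median was 0.01, where all genes tested had a median of -0.0029. None had an unadjusted p under 0.05, where 2.76% of all genes tested had one on the higher side and 2.65% on the lower side. Without Cre-miR122 replicate 1 there were 2 on the higher and 1 on the lower side, and 1 gene in all without Cre replicate 10, 11 or 12. The groups did not overlap for 1 of the 24 neighbours, Gm12500, a scarce transcript named after its values were seen. It was at 0.800 ± 0.274 CPM with Cre-miR122 and 1.12 ± 0.145 CPM with Cre. Of all genes tested, 5.45% did not overlap on the lower side. Psrc1 lay at 1.20, and the widest value among the 22 neighbours averaging at least 1 CPM was 0.29 (SE 0.20), for the glutathione S-transferase gene Gstm3. Of the tested neighbours under 1 CPM, Gm12500 stood at -0.49 (SE 0.31). Gnat2, also named after its values were seen, stood at -0.61 (SE 0.48), with overlapping groups.

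Close to the members on the Sort1 side, the proteasome subunit gene Psma5 had a log2 fold change of -0.07 (SE 0.08), Amigo1 one of 0.07 (SE 0.11), Cyb561d1 one of -0.08 (SE 0.21) and Atxn7l2 one of -0.15 (SE 0.18). On the Sars side, 5330417C22Rik had one of -0.23 (SE 0.21), Tmem167b one of 0.16 (SE 0.09), Taf13 one of 0.01 (SE 0.11) and Wdr47 one of -0.17 (SE 0.22). Beyond Wdr47, Gpsm2, which encodes a protein that orients the mitotic spindle, was at 19.0 ± 2.29 CPM with Cre-miR122 and 15.9 ± 2.07 CPM with Cre (log2 fold change 0.26, SE 0.13), with overlapping groups. Clcc1, Stxbp3 and Prpf38b lay between -0.15 and 0.10, and beyond Amigo1 on the other side Gnai3 stood at 0.16 and Ampd2 at -0.12. The glutathione S-transferase genes Gstm1 to Gstm7 and 4933431E20Rik lay between -0.13 and 0.29, and the Gstm counts are uncertain because these genes resemble each other.

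**Figure D3:**
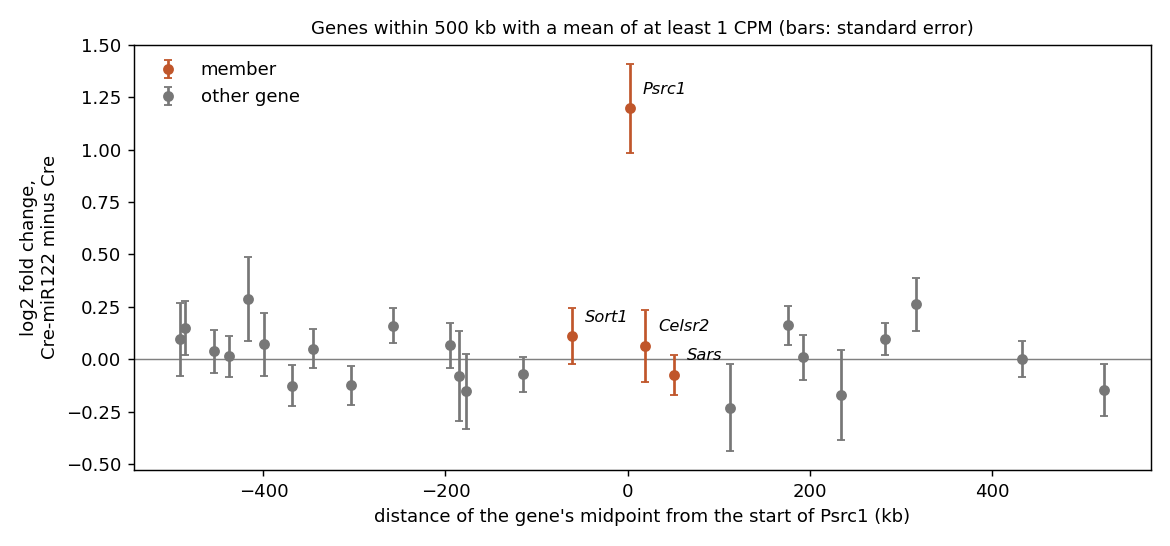
Log2 fold change, Cre-miR122 minus Cre (y axis), against the distance of each gene's midpoint from the start of Psrc1 in kb (x axis), for members (orange) and for other genes with a mean of at least 1 CPM (grey), with standard errors as bars. Psrc1 stands at 1.20 and every other gene lies between -0.23 and 0.29.

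Genes that act with sortilin showed no call, but nor did any of the 14374 genes tested, so this is not particular to them. Of the sortilin family, Sorl1 stood at -0.06 (SE 0.17) on the log2 scale and Sorcs2 at -0.03 (SE 0.38), and Sorcs1 and Sorcs3 were too scarce to be tested. The list of sorting adaptors and retromer held 13 genes, all tested, and includes receptor and cargo genes that are neither. Of the 13, 10 lay above 0 and 3 below, with a median of 0.09, 0 called and 0 at an unadjusted p under 0.05. The adaptors Gga1, Gga2 and Gga3 were at -0.07 (SE 0.08), 0.12 (SE 0.11) and -0.25 (SE 0.12), and the retromer subunit Vps35 at 0.15 (SE 0.14). The groups did not overlap for 1 gene of this list on the higher side, a receptor gene, and 2 on the lower, Gga3 among these. Of all genes tested, 5.69% did not overlap on the higher side and 5.45% on the lower side.

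Of 20 tested genes of lipoprotein secretion and clearance, 13 lay above 0 and 7 below, with a median of 0.03 and 0 called. Apob, the structural protein of very-low-density lipoprotein and a sortilin ligand, was at 3745 ± 298 CPM with Cre-miR122 and 3239 ± 325 CPM with Cre (SD, n = 3 each, log2 fold change 0.21, SE 0.12). Mttp, which loads lipid on apolipoprotein B, was at 0.02 (SE 0.08). The groups overlapped for Apob and for Mttp. An unadjusted p under 0.05 was reached by 3 genes of the list, all higher with Cre-miR122, where 2.76% of all genes tested had one on that side. On that side the count was 1 without Cre replicate 10 or 11 and 5 without Cre replicate 12. Leaving out Cre-miR122 replicate 1 or 2 gave 2 genes, and in the case of replicate 1 also 1 gene on the lower side. Over all genes, such a p on either side was reached by 778 of 14374 with all libraries. Without Cre replicate 10, 11 and 12 these were 821 of 14563, 467 of 14514 and 1535 of 14635. Without Cre-miR122 replicate 1 and 2 they were 1135 of 14561 and 623 of 14630.

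Hepatocyte factors described at the human locus showed no call, and nor did any other gene tested. Of 6 genes 2 lay above 0 and 4 below, with a median of -0.12 and 0 called. Cebpa was at 263 ± 12.8 CPM with Cre-miR122 and 293 ± 10.7 CPM with Cre (log2 fold change -0.15, SE 0.08). Its groups did not overlap, where 5.45% of all genes tested did not overlap on the lower side. Cebpb was at 0.15 (SE 0.31), Hnf4a at 0.12 (SE 0.12) and Foxa2 at -0.25 (SE 0.19).

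Around Celsr2, 14 genes of the Celsr family and of planar cell polarity were tested, with 5 above 0 and 9 below, a median of -0.06 and 0 called. Celsr1 was at 9.02 ± 1.42 CPM with Cre-miR122 and 7.22 ± 2.52 CPM with Cre (log2 fold change 0.32, SE 0.23). Vangl1, Vangl2 and Prickle1 were at 0.32 (SE 0.18), -0.16 (SE 0.19) and -0.29 (SE 0.17), and Celsr3 was too scarce to be tested. Around Sars, 18 cytosolic aminoacyl-tRNA synthetase genes had 11 above 0 and 7 below, a median of 0.02, a range of -0.17 to 0.14 and 0 called. Aars, Gars, Wars and Nars were at -0.04 (SE 0.08), 0.01 (SE 0.08), -0.11 (SE 0.10) and -0.01 (SE 0.08), a spread that also holds the -0.07 of Sars.

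Around Mybphl, 2 of 15 striated muscle genes were tested. They were Tnnt2, at 0.773 ± 0.663 CPM with Cre-miR122 and 0.587 ± 0.105 CPM with Cre (log2 fold change 0.39, SE 0.58), and Myl4, at 0.818 ± 0.286 and 0.875 ± 0.0499 CPM (-0.10, SE 0.30). Mybph, the gene closest in name and protein family to Mybphl, had no count in any library.

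In both lists drawn up around Psrc1, spindle genes and p53 targets, most tested genes lay above 0. The spindle list also holds general cell cycle genes. Of 21 tested microtubule and spindle genes 19 lay above 0 and 2 below, with a median of 0.41 and 0 called, and 11 had an unadjusted p under 0.05, all on the higher side. Of all 14374 genes tested, 7096 lay above 0, 2.76% had such a p on the higher side and 2.65% on the lower side. Kif2a, Mapre3 and Mapre1 were at 0.06 (SE 0.10), -0.15 (SE 0.10) and 0.02 (SE 0.08). Kif2c was at 7.94 ± 0.444 CPM with Cre-miR122 and 4.76 ± 1.62 CPM with Cre (log2 fold change 0.74, SE 0.22). Of 24 tested p53 targets, Psrc1 not counted, 18 lay above 0 and 6 below, with a median of 0.27 and 0 called. An unadjusted p under 0.05 was reached by 8 on the higher and 1 on the lower side. Cdkn1a, the p21 gene, was at 0.19 (SE 0.35), the cyclin G1 gene Ccng1 at 0.32 (SE 0.08), Mdm2, which restrains p53, at -0.07 (SE 0.11) and Phlda3 at 0.58 (SE 0.20). Both lists were chosen with earlier results of these libraries known, and their counts are not independent evidence of a direction.

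By library, Psrc1 deviated from its mean of log2 CPM by 0.37, 0.68 and 0.72 in Cre-miR122 replicates 1, 2 and 4, and by -0.37, -1.04 and -0.36 in Cre replicates 10, 11 and 12. The mean deviation of the spindle list was -0.02, 0.33 and 0.34 in the same Cre-miR122 libraries and 0.08, -0.57 and -0.16 in the Cre libraries, so the groups overlapped for that list. That of the p53 list was 0.26, 0.09 and 0.04 with Cre-miR122 and -0.10, -0.22 and -0.08 with Cre, with no overlap. Of all genes tested, 5.69% did not overlap on the higher side, a share of single genes and not of list means. Cre replicate 11 was lowest in all 3 measures. Without it the spindle list had 19 of 21 genes above 0, a median of 0.28 and 6 genes at an unadjusted p under 0.05, and the p53 list 20 of 24, a median of 0.23 and 3 such genes on the higher side. Such spindle genes numbered 7 without Cre-miR122 replicate 2 and 6 without replicate 4, and such p53 targets on the higher side 4 without Cre-miR122 replicate 1, with a median of 0.17, and 5 without replicate 2. Without Cre replicate 10 the counts above 0 were 20 of 21 and 18 of 24. Over all genes, an unadjusted p under 0.05 on either side was reached by 778 of 14374 with all libraries. Without Cre replicate 10, 11 and 12 these were 821 of 14563, 467 of 14514 and 1535 of 14635. Without Cre-miR122 replicate 1, 2 and 4 they were 1135 of 14561, 623 of 14630 and 425 of 14641.

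Of the marker lists, the 5 B cell markers summed to 12.4 to 16.4 CPM in Cre-miR122 libraries and 21.1 to 27.1 CPM in Cre libraries, with no overlap. Of all genes tested, 5.45% did not overlap on the lower side, a share of single genes and not of sums. The sums of hepatocyte, cholangiocyte, sinusoidal endothelial, stellate, Kupffer, erythroid, muscle, and T and NK cell markers overlapped between the groups. The part of proliferation, of p53 activity or of cell type makeup in the Psrc1 difference was not tested.

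**Figure D4:**
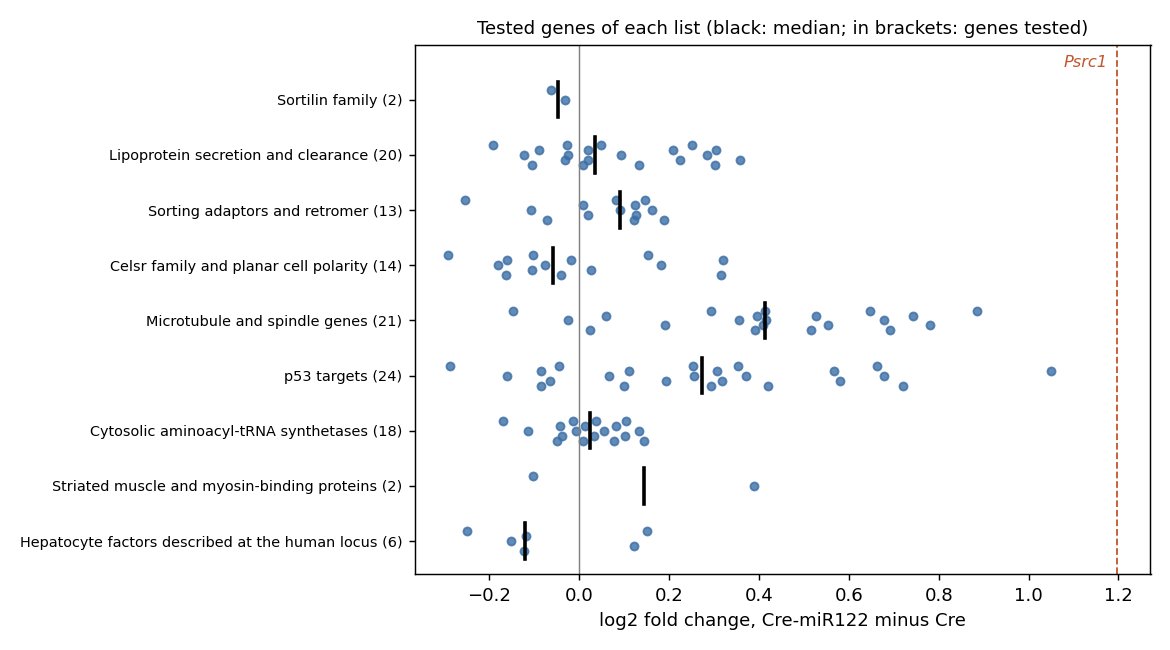
Log2 fold change, Cre-miR122 minus Cre (x axis), of each tested gene (points) in the lists around the members (rows, with the number of genes tested in brackets), with the median of each list as a black bar and Psrc1, left out of the lists, as a dashed line at 1.20. The spindle list has a median of 0.41 and the p53 list one of 0.27, and the medians of the other lists lie between -0.12 and 0.14.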

How the data were processed

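Bulk liver messenger RNA was measured in 6 libraries, 3 per vector, grouped by their titles. The authors deposited raw counts of reads per gene. The tools they list, per the submitters' processing notes, are STAR (2.7.9a) and featureCounts (2.0.1), and the build is GRCm38 (mm10). The sources used here do not give the strand setting or the handling of multi-mapped reads. Per-sample columns that match no sample, 5 in number, were not used. Gene lengths for RPKM are those of the deposited table.

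Genes were tested across the whole table with edgeR 4.0.16 in R 4.3.3 (quasi-likelihood F test, TMM scaling, filterByExpr, group alone, two-sided, Benjamini-Hochberg adjusted p under 0.05, contrast Cre-miR122 minus Cre). Standard errors were derived from the F statistic. DESeq2 1.42.0, limma-voom (limma 3.58.1), other scalings and filters, a sex term, robust dispersion and leaving out each library were alternatives. Likeness used log2 CPM with a prior count of 2. Intervals of counts are exact 95% Poisson intervals. Each tool was tested on simulated data, with changes planted only in genes of higher average count than Psrc1, Celsr2 or Mybphl. That test does not show how changes at the depth of these genes are recovered. No 2 libraries agreed within sampling noise (lowest chi-square over degrees of freedom 6.15). As the labels name no animals, p-values measure the spread between these libraries, which may be technical.

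The members and gene lists were chosen with earlier results of these data known. Named genes are the members, genes within 500 kb averaging at least 1 CPM, the first 4 tested genes of each list and the 5 genes per rule of likeness, others being marked as named after their values were seen. Some genes that this rule names are not reported here.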

Additional observations from a re-analysis of the deposited data

How the results depend on the processing

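No paired analysis was possible because the 2 groups share no replicate number. The log2 fold changes of Psrc1, Sort1, Celsr2 and Sars moved by less than 1 SD between libraries under each alternative run, but Celsr2 and Sars changed sign without Cre replicate 10 and with a sex term. With 1 library left out Psrc1 ranged from 0.99 to 1.31, Sort1 from 0.017 to 0.25, Celsr2 from -0.038 to 0.19 and Sars from -0.13 to 0.0015. By edgeR, 0 genes were called higher and 0 lower with each library left out. DESeq2 called 1 gene higher (Psrc1, adjusted p = 0.0436) and 2 lower (Prok1 and the Cre transcript), and edgeR without a filter called the same 2 lower. The adjusted p of Psrc1 ran from 0.131 to 0.999 under the alternatives other than DESeq2. As Psrc1 was picked in this contrast, none of its p-values, that of DESeq2 included, is support. Genes at an unadjusted p under 0.05 numbered 1169 without a filter, which tests more genes, and 425 to 1535 with 1 library left out (425 on leaving out Cre-miR122 replicate 4, 467 for Cre replicate 11 and 1535 for Cre replicate 12). The median of the neighbours was -0.081 over the 5 genes tested within 100 kb, and ran from -0.036 to 0.042 with 1 library left out. That of the p53 list ran from 0.17 (without Cre-miR122 replicate 1) to 0.33, and that of the muscle list from -0.46 (without Cre-miR122 replicate 1) to -0.036, against 0.14 with all libraries, but 2 to 4 of its genes passed the filter, so the gene sets differ too. With a CPM of at least 1 in 3 libraries no muscle gene was left. The causes were not tested. By Spearman correlation 69 genes tied as most like Psrc1, among them Rbpj and Impad1 of the 5 named by Pearson r, so it gives no single 5. At 34 to 116 counts per library for Psrc1 and at most 5 for Mybphl, counting error limits both.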
